A study of Mus musculus with 6 samples.

Results

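The miR-30 family was described in mucosa of the mouse small intestine, from 3 littermates and 3 mice without Cdr1as (Cdr1as-/-), with 1 small RNA array per mouse. The members were the rows of the deposited miRNA table named mmu-miR-30a-5p, mmu-miR-30b-5p, mmu-miR-30c-5p, mmu-miR-30d-5p, mmu-miR-30e-5p, mmu-miR-30a-3p, and mmu-miR-30e-3p, which are 7 of 1831 miRNAs. The study asked how miRNA levels in the mucosa differ when Cdr1as, a circular RNA with many binding sites for miR-7, is missing. The labels call the control mice wildtype, and the methods describe them as littermates of the Cdr1as-/- mice, in which the whole Cdr1as locus was deleted with CRISPR on a C57BL/6J background, a deletion not limited to a cell type. Neither group received a treatment beyond the withholding of food before tissue was taken, and ages are not given in the sources used here. The circular RNA itself had no probe among the named miRNAs, so the deletion could not be checked on these arrays.

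A miRNA is cut from a hairpin whose 2 arms give a 5p and a 3p strand, and usually 1 strand is kept as the guide that represses messenger RNAs through its seed, bases 2 to 8. The miR-30 family is abundant in epithelia, and its 5p strands share 1 seed and are therefore predicted to recognise the same sites. In cultured intestinal epithelial cells the family is known to act on proliferation and differentiation, and miR-30a is known to repress the autophagy gene Beclin 1. The 3p strands come from the opposite arm of the same hairpins and carry another seed.

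The mature sequences are shown because both the shared seed and the differences behind it return in the results. They are from RefSeq (GRCm38.p6), written 5′ to 3′ with the seed in capitals. The table used here held 5 of the 7 members.
mmu-miR-30a-5p: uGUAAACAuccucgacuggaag
mmu-miR-30e-5p: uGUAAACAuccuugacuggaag
mmu-miR-30c-5p: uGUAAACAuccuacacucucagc
mmu-miR-30a-3p: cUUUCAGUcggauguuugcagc
mmu-miR-30e-3p: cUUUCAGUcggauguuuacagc
With positions counted from 1 at the 5′ end, mmu-miR-30e-5p differs from mmu-miR-30a-5p by C13U only, and mmu-miR-30e-3p differs from mmu-miR-30a-3p by G18A only. In the deposited sequence column, mmu-miR-30d-5p differed from mmu-miR-30a-5p at 1 of 22 positions and from mmu-miR-30e-5p at 2. In that column mmu-miR-30b-5p and mmu-miR-30c-5p were identical over their first 18 bases, and each parted from mmu-miR-30a-5p after base 12. The 5p strands therefore fell into a group of 3 (a, d, and e) and a pair (b and c) that differed in their 3′ part, behind the same seed.

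The genes lie in pairs. mmu-miR-30a-5p is at chr1:23272274-23272295 on the plus strand, and mmu-miR-30c-5p is at chr1:23291714-23291736 on the plus strand and, as a second copy, at chr4:120769584-120769606 on the minus strand. mmu-miR-30e-5p is at chr4:120772660-120772681 on the minus strand. The annotation places Mir30c-1 and Mir30e within Nfyc, a protein-coding gene for a subunit of the transcription factor NF-Y, whereas no gene encloses Mir30a or Mir30c-2. Mir30b and Mir30d neighbour each other on chromosome 15. Since Mir30c-1 and Mir30c-2 give the same mature 5p strand, the array value of mmu-miR-30c-5p covers both genes.

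One array stood apart from the others. The median unnormalized signal of the miRNA probes was between 8.75 and 29.2 on 5 arrays and 236 on the array of littermate 3, and the SD of the difference from the mean of littermates 1 and 2 over all miRNAs was 1.71 log2 units for littermate 3 against 0.46 to 0.79 for the Cdr1as-/- mice. The comparisons between genotypes were therefore made with all 6 arrays and with the 5 arrays that remain without littermate 3. The 3 littermates and Cdr1as-/- mouse 1 shared 1 slide, and Cdr1as-/- mice 2 and 3 were on another. All 5 probes of each 5p member and of mmu-miR-30e-3p were well above background on all 6 arrays, whereas 3 of the 5 probes of mmu-miR-30a-3p were, and no member spot was saturated or flagged as an outlier. On the array of littermate 3, 100.0% of the miRNA probes were flagged as well above background, against 41.5% to 96.8% on the other arrays. The flag therefore does not separate detected from undetected probes in littermate 3. The epithelial marker miRNAs were present as the tissue label requires, with mmu-miR-194-5p, a miRNA typical of intestinal epithelium, between 15.18 and 15.86 on all 6 arrays. Across the 9 epithelial markers the difference of littermate 3 from the mean of littermates 1 and 2 ran from -4.24 to -0.55, with a median of -3.08. The smallest, -0.55, was that of mmu-miR-194-5p. Values are the deposited normalized log2 intensities throughout, and since probes differ in brightness, levels were compared between mice and not between miRNAs.

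Among the 5p strands, those of miR-30b and miR-30c gave the widest range between mice. mmu-miR-30b-5p was 11.43, 11.31, and 6.85 in littermates 1 to 3, while Cdr1as-/- mice 1 to 3 gave 10.38, 11.35, and 10.88. mmu-miR-30c-5p was 10.74, 10.59, and 5.98 in the littermates, against 9.81, 10.53, and 10.11 in the Cdr1as-/- mice. In both, littermate 3 was the lowest of the 6 mice by far, and Cdr1as-/- mouse 1 was the lowest of the other 5. Compared with the mean of littermates 1 and 2, the difference of littermate 3 was -4.52 log2 units for mmu-miR-30b-5p and -4.68 for mmu-miR-30c-5p. Among the 88 miRNAs at 9 or more in both littermates 1 and 2, the median of this difference was -3.49. Of these 88, 56 were lower in littermate 3 by more than 2 log2 units and 22 were higher. A low value in littermate 3 was therefore not particular to these 2 strands.

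The other 3 members of the 5p arm did not share this. mmu-miR-30a-5p was 9.83, 9.75, and 11 in littermates 1 to 3, while Cdr1as-/- mice 1 to 3 gave 9.41, 9.77, and 9.49, so that littermate 3 was the highest mouse, by 1.21 over the mean of littermates 1 and 2. mmu-miR-30d-5p was 10.13, 10.10, and 9.83 in the littermates, against 9.26, 10.09, and 9.82 in the Cdr1as-/- mice. mmu-miR-30e-5p was 11.05, 10.97, and 11.25 in the littermates, against 10.55, 10.97, and 10.78 in the Cdr1as-/- mice. For mmu-miR-30e-5p littermate 3 was again the highest, while for mmu-miR-30d-5p it lay within the range of the other mice. These are the 3 strands that differ from each other at 1 or 2 positions, and the pair that lay low in littermate 3 is the pair with the same first 18 bases. Whether the likeness in sequence has a part in this was not tested, and many other bright miRNAs also lay low in littermate 3.

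The 3p strands lay low in littermate 3 together with miR-30b and miR-30c. mmu-miR-30e-3p was 8.03, 7.78, and 4.23 in littermates 1 to 3, while Cdr1as-/- mice 1 to 3 gave 6.21, 7.65, and 7.01. mmu-miR-30a-3p, the other 3p member, was 6.04, 5.96, and 3.86 in the littermates, against 4.89, 5.88, and 5.33 in the Cdr1as-/- mice. Littermate 3 was the lowest mouse for both, and without it all 3 Cdr1as-/- mice lay below both littermates. Among the 786 miRNAs with a mean of at least 5 over the 6 arrays, 160 were lower in littermate 3 by more than 2 log2 units and 525 were higher.

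**Figure D1:**
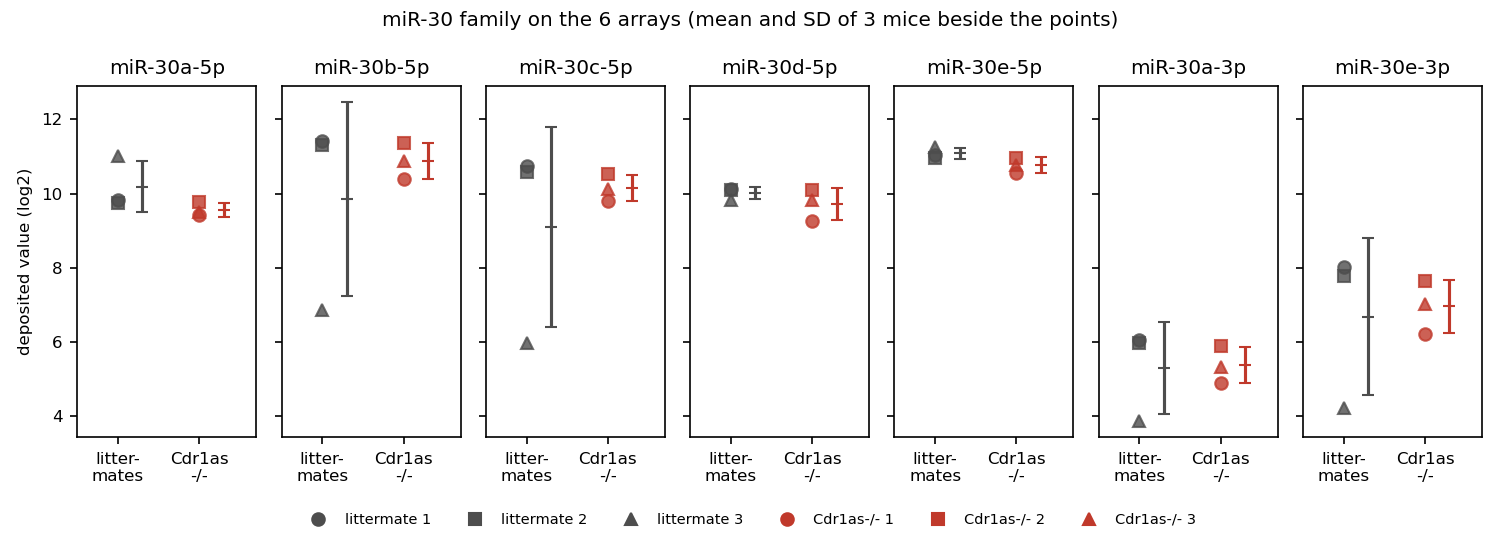
Deposited log2 value of the 7 miR-30 strands in each mouse, with littermates in grey and Cdr1as-/- mice in red, and the mean and SD of 3 mice beside the points. Littermate 3 lies far below the other mice for miR-30b-5p, miR-30c-5p, miR-30a-3p, and miR-30e-3p, and above them for miR-30a-5p and miR-30e-5p.

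The single probes showed the same split. Each strand is measured by 5 probes, and all 5 probes of mmu-miR-30b-5p were lower in littermate 3 than in the mean of littermates 1 and 2, with differences of -4.41 to -4.73, as were all 5 probes of mmu-miR-30c-5p, with differences of -3.32 to -4.89. For mmu-miR-30a-5p, 4 of 5 probes were higher in littermate 3, with differences of -0.17 to 3.51 between probes, and for mmu-miR-30e-5p 3 of 5 were, with differences of -0.47 to 3.00. For mmu-miR-30d-5p the differences ran from -1.20 to 2.54, and 2 of 5 probes were higher.

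The dimmest probe of each of the a, d, and e strands lay higher by the most, and the 5 probes of each came to nearly the same value in littermate 3. That probe was higher by 2.54 for mmu-miR-30d-5p and by 3.00 for mmu-miR-30e-5p. The other probes of these 2 strands were higher by 0.69 at most, and some were lower. The distance from the dimmest to the brightest probe of mmu-miR-30a-5p was 3.02, 3.15, and 0.70 log2 units in littermates 1 to 3, while Cdr1as-/- mice 1 to 3 gave 1.95, 2.69, and 3.03. For mmu-miR-30d-5p it was 3.30 and 3.53 in littermates 1 and 2 and 0.41 in littermate 3, and for mmu-miR-30e-5p 3.52 and 3.40 against 0.56. The probes of the 3p members, which lay low in littermate 3, also came together there. Their distance was 4.19 and 3.30 against 0.69 for mmu-miR-30a-3p, and 2.73 and 2.91 against 0.77 for mmu-miR-30e-3p. Both dim probes of mmu-miR-30c-5p stayed well below its bright ones, and its distance was 4.87, 4.86, and 3.54 in littermates 1 to 3. Over 97 miRNAs with 5 probes and a mean of at least 9, a level set after the values were seen, the median distance was 1.28 and 1.34 in littermates 1 and 2 and 1.66 in littermate 3. Of these 97, 6 narrowed by more than 2 log2 units in littermate 3, and 3 of the 6 were mmu-miR-30a-5p, mmu-miR-30d-5p, and mmu-miR-30e-5p. The other 3, named after their values were seen, were mmu-miR-378c, mmu-miR-16-5p, and mmu-miR-19a-3p, each of which lay lower in littermate 3 than in littermates 1 and 2. Where brightness was instead set by littermates 1 and 2 alone, 12 of 86 miRNAs with 5 probes narrowed as much, and of those with a mean of at least 5 over the 6 arrays 60 of 772 did, so narrowing was not limited to miR-30.

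In the unnormalized scanner signals the 5p strands divided in the same way. The mean signal over the probes of mmu-miR-30b-5p was between 1194 and 1952 on 5 arrays and 1395 on that of littermate 3, and for mmu-miR-30c-5p it was between 690 and 1272 against 751. For mmu-miR-30a-5p it was between 439 and 1127 on 5 arrays and 10144 on that of littermate 3, for mmu-miR-30d-5p between 553 and 1030 against 6482, and for mmu-miR-30e-5p between 1136 and 2082 against 11240. The 3p members were also brighter in littermate 3, unlike b and c. mmu-miR-30a-3p was at 131 there against 22.4 to 43.2 on the other arrays, and mmu-miR-30e-3p at 181 against 77.4 to 130. Both were below the median probe signal of that array, 236. Thus before normalization the signal of b and c in littermate 3 was within the range of the other arrays, on an array whose median probe was brighter. That of a, d, e, and both 3p members was above it. What sets the array of littermate 3 apart was not tested.

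**Figure D2:**
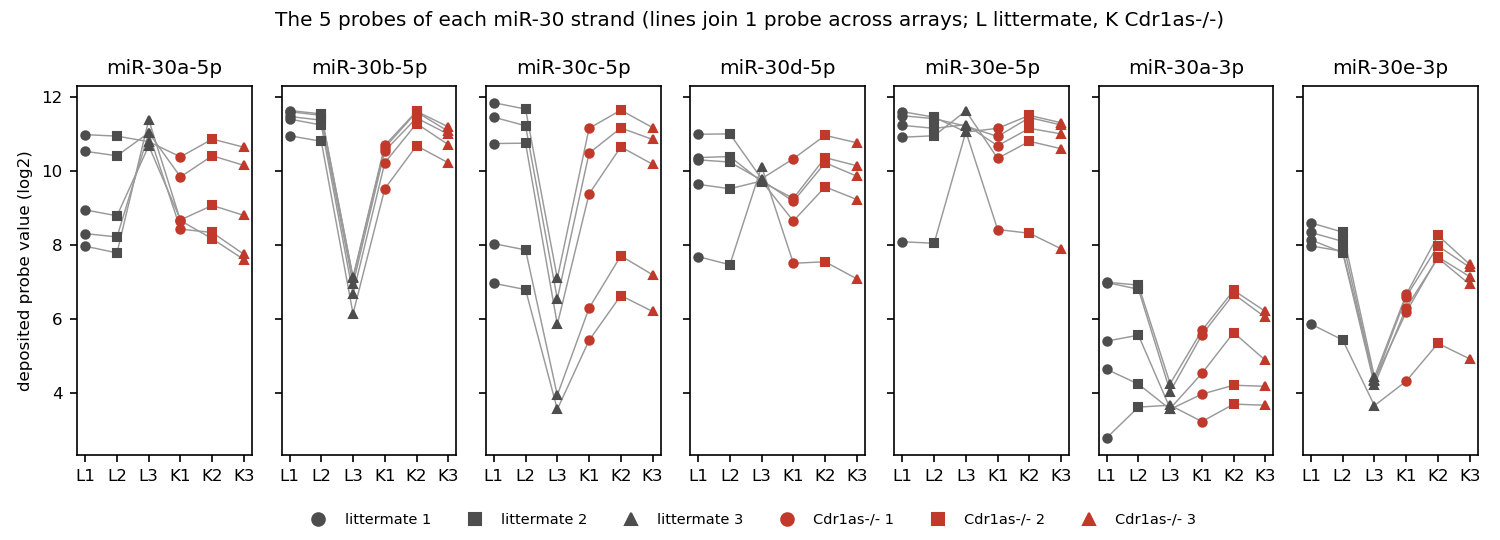
Deposited log2 value of each of the 5 probes of every miR-30 strand on the 6 arrays (L, littermates; K, Cdr1as-/- mice), with lines joining the same probe. In littermate 3 the probes of miR-30a-5p, miR-30d-5p, and miR-30e-5p converge within 0.70 log2 units, and those of miR-30a-3p and miR-30e-3p within 0.77. All probes of miR-30b-5p and miR-30c-5p lie lower there than on the other arrays.

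With all 6 arrays, none of the 7 members passed the test between the genotypes, and the 5p strands took opposite signs. limma, adjusted by the Benjamini-Hochberg method over 1831 miRNAs, gave log2 differences (Cdr1as-/- minus littermate) of 1.01 ± 1.25 (SE) for mmu-miR-30b-5p and 1.05 ± 1.28 for mmu-miR-30c-5p, against -0.64 ± 0.39 for mmu-miR-30a-5p, -0.30 ± 0.29 for mmu-miR-30d-5p, and -0.32 ± 0.23 for mmu-miR-30e-5p. The 3p strands gave 0.08 ± 0.65 for mmu-miR-30a-3p and 0.28 ± 1.06 for mmu-miR-30e-3p. The adjusted p was 1.0 for each of the 7, and the exact permutation p of single members, which cannot go below 0.1 with 3 mice against 3, was between 0.2 and 1.0. Of all miRNAs, 0.0% were called after adjustment (0 of 1831) and 0.218% had an unadjusted limma p under 0.05 with a lower value in Cdr1as-/- mice, none of them a member, and the median difference was -0.07. No member had all 3 Cdr1as-/- mice below all 3 littermates, as 2.73% of miRNAs did. The sign for mmu-miR-30b-5p, mmu-miR-30c-5p, and both 3p strands rested on littermate 3, since without it each turned negative. The 3p strands also turned negative without Cdr1as-/- mouse 2, to -0.18 for mmu-miR-30a-3p and -0.07 for mmu-miR-30e-3p. The sign for mmu-miR-30d-5p turned to between 0.05 and 0.09 under 4 of the 5 treatments of the scanner output, which also take 1 probe per miRNA.

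Without littermate 3, all 7 members had a lower mean in the Cdr1as-/- mice, and again none passed the adjusted threshold. The 5p strands gave log2 differences of -0.23 ± 0.24 (SE) for mmu-miR-30a-5p, -0.24 ± 0.24 for mmu-miR-30e-5p, -0.39 ± 0.29 for mmu-miR-30d-5p, -0.50 ± 0.31 for mmu-miR-30b-5p, and -0.52 ± 0.27 for mmu-miR-30c-5p, with limma adjusted p between 0.393 and 0.577. The 3p strands gave -0.64 ± 0.31 for mmu-miR-30a-3p (adjusted p = 0.388) and -0.95 ± 0.39 for mmu-miR-30e-3p, which is 0.519 times the littermate level, with a 95% confidence interval of -1.82 to -0.07, an unadjusted limma p of 0.0367, and an adjusted p of 0.364. Of the 7 members, mmu-miR-30e-3p alone had an unadjusted p under 0.05, beside 10.5% of all miRNAs that did so in this direction, and 0.0% of the 1831 were called after adjustment. The exact permutation p was between 0.2 and 0.3 for the members, where 0.1 is the smallest that 3 mice against 2 can give.

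The members' shared direction was read against all miRNAs. On the 5 arrays 42.9% of the 1831 miRNAs had a lower mean in Cdr1as-/- mice and the median difference was 0.09, whereas the median of the members was -0.50. Among the 99 miRNAs with a mean of at least 9 over the 6 arrays, a level that takes in the 5p members, 53.5% were lower, with a median of -0.08. That mean includes littermate 3, and among the 88 miRNAs at 9 or more in both littermates 1 and 2, which also take in the 5p members, 73.9% were lower, with a median of -0.31. The share of lower miRNAs thus depended on how bright miRNAs were chosen, and nothing particular to miR-30 is read from the direction. Among the 786 with a mean of at least 5, which take in the 3p members, 35.1% were lower. In 4 of the 7 members (mmu-miR-30c-5p, mmu-miR-30d-5p, mmu-miR-30a-3p, and mmu-miR-30e-3p) all 3 Cdr1as-/- mice lay below littermates 1 and 2, beside 19.9% of all miRNAs.

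The size of the difference varied between the Cdr1as-/- mice in the same order for all 7 members. Cdr1as-/- mouse 1 was the lowest of the 5 mice for every member, as it was for 23.0% of all miRNAs and for 41.4% of the 99 and 60.2% of the 88 bright ones. Its difference from the mean of littermates 1 and 2 ran from -0.38 log2 units for mmu-miR-30a-5p to -1.69 for mmu-miR-30e-3p. Cdr1as-/- mouse 2 was closest to the littermates, with differences of -0.02 for mmu-miR-30a-5p and mmu-miR-30b-5p to -0.25 for mmu-miR-30e-3p, and mouse 3 lay between them, at -0.23 for mmu-miR-30e-5p to -0.90 for mmu-miR-30e-3p. Littermates 1 and 2 differed from each other by between -0.03 for mmu-miR-30d-5p and -0.25 for mmu-miR-30e-3p. The -0.25 of mouse 2 is measured from the mean of the littermates and that of the littermates from each other, so they are not alike. For mmu-miR-30e-3p mouse 2, at 7.65, lay below both littermates, at 8.03 and 7.78.

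The calls for the 3p strands depended on which Cdr1as-/- mouse was used. Without mouse 2, limma called mmu-miR-30e-3p (-1.29, adjusted p = 0.0269) and mmu-miR-30a-3p (-0.89, adjusted p = 0.0427), and 223 of all miRNAs. Without mouse 1, the differences shrank to between -0.13 and -0.57, and limma called no member. With the slide as a block, littermates 1 and 2 and Cdr1as-/- mouse 1 on their common slide alone set the difference, which was -1.69 ± 0.35 (SE) for mmu-miR-30e-3p (adjusted p = 0.0187), with 285 of all miRNAs called. With all 6 arrays, the same block, which again compares mouse 1 with the littermates of its slide, gave -0.47 ± 1.57 for mmu-miR-30e-3p (adjusted p = 1.0). The other slide held no littermate, so no difference could be taken there.

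**Figure D3:**
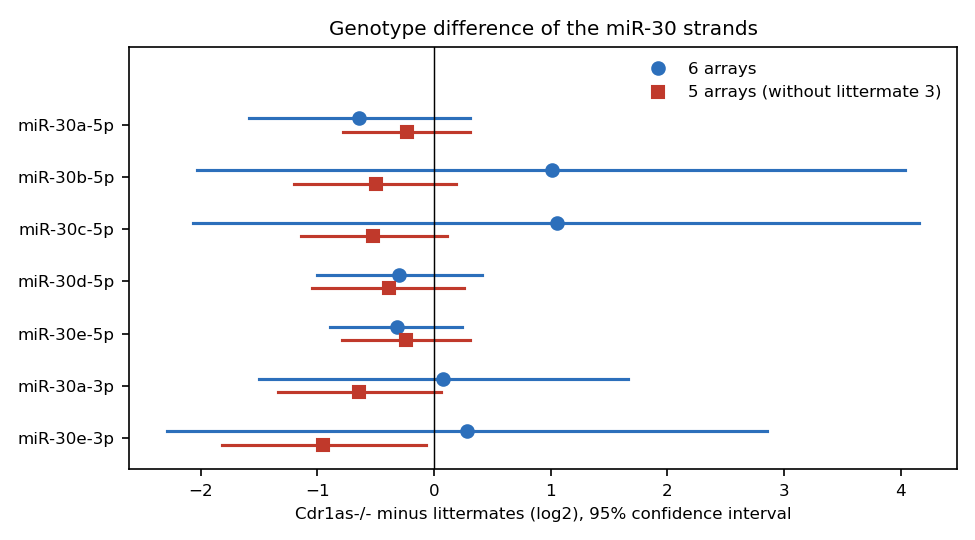
Log2 difference between Cdr1as-/- mice and littermates for each miR-30 strand from limma, with its 95% confidence interval, for all 6 arrays (circles) and for the 5 arrays without littermate 3 (squares). On 5 arrays all 7 estimates lie below 0, and only the unadjusted interval of miR-30e-3p, -1.82 to -0.07, leaves out 0.

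The 5p and 3p strands of 1 hairpin were compared by their difference within an array, which removes a shift that is equal for all probes of the array but not one that varies with brightness. For miR-30e, mmu-miR-30e-5p minus mmu-miR-30e-3p was 3.02, 3.19, and 7.02 log2 units in littermates 1 to 3, while Cdr1as-/- mice 1 to 3 gave 4.34, 3.32, and 3.77. For miR-30a it was 3.79, 3.78, and 7.14 in the littermates, against 4.52, 3.90, and 4.15 in the Cdr1as-/- mice. In both hairpins littermate 3 had by far the widest gap. Its 3p strands, mmu-miR-30a-3p at 3.86 and mmu-miR-30e-3p at 4.23, lay below the median miRNA value of that array, 4.77. The width of the gap in littermate 3 was therefore not read as a difference between the strands. Without littermate 3, every Cdr1as-/- mouse had a wider gap than littermates 1 and 2 in both hairpins. How many of all hairpins separate in this way was not counted, so this is not read as particular to miR-30. Over all 659 hairpins on 5 arrays the median difference was 0.08. An unadjusted limma p under 0.05 was reached by 72 hairpins with a higher and 37 with a lower value in Cdr1as-/- mice.

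The wider gap of miR-30a and miR-30e in the Cdr1as-/- mice did not pass the test. On 5 arrays, limma over 659 hairpins with both strands gave 0.70 ± 0.37 (SE) for miR-30e (unadjusted p = 0.0944, adjusted p = 0.377) and 0.40 ± 0.32 for miR-30a (adjusted p = 0.526), and 0.0% of the hairpins were called. The positive values mean that the 3p strand was lower by more than the 5p strand in the Cdr1as-/- mice. With all 6 arrays the values were -0.60 ± 1.1 and -0.72 ± 0.94 (adjusted p = 0.992 for both), again with 0.0% of hairpins called. Under 3 scalings of the scanner output by a single factor per array, with 1 probe per miRNA, the 5-array value for miR-30a was -0.08, whereas that for miR-30e stayed above 0 in all alternatives, between 0.16 and 1.23.

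The miR-30b and miR-30d hairpins, whose 3p strands are no members and lay near the bottom of the scale, were read in the same way. For miR-30b the difference was 7.4, 7.30, and 3.69 in littermates 1 to 3, while Cdr1as-/- mice 1 to 3 gave 6.99, 7.45, and 7.24. For miR-30d it was 5.93, 5.73, and 6.65 in the littermates, against 5.56, 5.79, and 5.59 in the Cdr1as-/- mice. On 5 arrays limma gave -0.12 for miR-30b (95% confidence interval -0.82 to 0.58, adjusted p = 0.865) and -0.18 for miR-30d (-0.86 to 0.49, adjusted p = 0.796). With all 6 arrays it gave 1.10 ± 1.01 (SE) and -0.46 ± 0.36 (adjusted p = 0.992 for both), and the sign for miR-30b turned with littermate 3. No probe of mmu-miR-30b-3p and 1 of 4 probes of mmu-miR-30d-3p were well above background on all 6 arrays, which limits what these values show. On 5 arrays the genotype difference was -0.50 for mmu-miR-30b-5p and -0.38 for mmu-miR-30b-3p. For miR-30d it was -0.39 for the 5p and -0.21 for the 3p strand, so both strands enter these values.

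**Figure D4:**
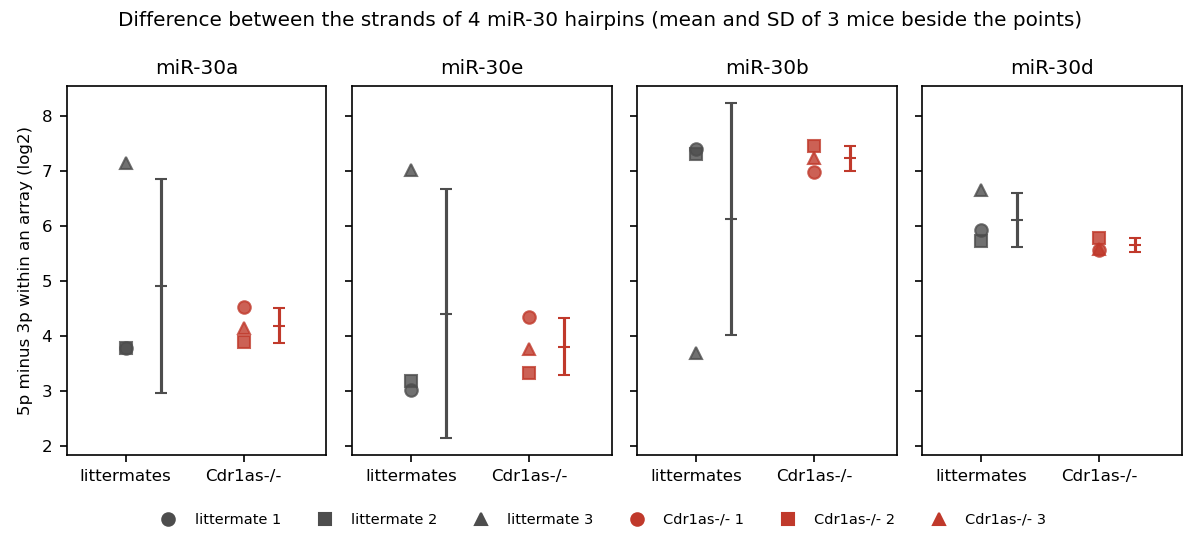
Log2 value of the 5p strand minus that of the 3p strand on the same array for 4 miR-30 hairpins, with 1 point per mouse and the mean and SD of 3 mice beside them. Littermate 3 lies at 7.14 for miR-30a and 7.02 for miR-30e, above all other mice, and at 3.69 for miR-30b, below them.

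Of the other 5 strands that carry the miR-30 name, mmu-miR-30c-1-3p, from the opposite arm of the Mir30c-1 hairpin within Nfyc, was the one measured by 5 probes well above background on all 6 arrays. It was 6.48, 6.29, and 3.83 in littermates 1 to 3, while Cdr1as-/- mice 1 to 3 gave 5.0, 5.60, and 5.59. As with the 3p members, littermate 3 was the lowest mouse, and without it all 3 Cdr1as-/- mice lay below the littermates. On 5 arrays its log2 difference was -0.99 ± 0.27 (SE), with an unadjusted limma p of 0.00539, an adjusted p of 0.247, and an exact permutation p of 0.1, the smallest possible. With 6 arrays the difference was -0.13 ± 0.73. All 5 of these strands had a lower mean without littermate 3, with a median of -0.33, and 4 of the 5 (mmu-miR-30b-3p, mmu-miR-30c-2-3p, mmu-miR-30d-3p, and mmu-miR-30f) were at 4.63 or lower on every array. mmu-miR-384-5p, the 1 miRNA outside the family with the seed of the 5p strands, lay between 3.35 and 3.76, and none of its 5 probes was well above background on all 6 arrays. mmu-miR-30d-3p shares the seed of the 3p members, the only other miRNA of the table to do so.

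The let-7 family, another abundant family with a common seed, was set beside miR-30. All 9 let-7 guide strands, among them mmu-let-7a-5p and mmu-miR-98-5p, lay lower in littermate 3 than in the mean of littermates 1 and 2, with differences of -3.27 to -4.29, so the let-7 strands did not divide as the 5p strands of miR-30 did. On 5 arrays all 9 had a lower mean in the Cdr1as-/- mice, with a median of -0.32 and limma adjusted p between 0.388 and 0.713. With all 6 arrays all 9 had a higher mean instead, between 0.45 and 1.09 with a median of 0.98 (adjusted p = 1.0 for each), whereas the 7 miR-30 members had both signs. The direction on 5 arrays was therefore shared by both families. Whether they differ in size was not tested.

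The miRNAs whose pattern over 6 arrays was most like the mean of the 5 strands of the 5p arm were mmu-miR-484, mmu-miR-148b-3p, mmu-let-7j, mmu-miR-98-5p, and mmu-miR-7a-5p, with Pearson r between 0.998 and 0.999 over the same 6 arrays, which share array brightness and the low value of littermate 3. The mean of the 5p arm was 10.64, 10.54, and 8.98 in littermates 1 to 3, while Cdr1as-/- mice 1 to 3 gave 9.88, 10.54, and 10.21. It joins mmu-miR-30b-5p and mmu-miR-30c-5p, lowest in littermate 3, with mmu-miR-30a-5p and mmu-miR-30e-5p, highest there. The r over 6 arrays therefore describes the mean and not each of its strands. mmu-miR-7a-5p, from the family that binds Cdr1as, was 9.51, 9.48, and 5.56 in the littermates, against 7.85, 9.57, and 8.76 in the Cdr1as-/- mice. It had the same order of mice as the miR-30 mean but for Cdr1as-/- mouse 2, which was its highest. Over the 5 arrays without littermate 3, the most alike were mmu-miR-6412, mmu-miR-484, mmu-miR-148b-3p, mmu-miR-7056-5p, and mmu-miR-361-5p, with r between 0.995 and 0.997.

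Marker miRNAs of the cell types in the mucosa were compared between the same mice, since fewer cells of a type and less RNA per cell cannot be told apart in bulk tissue. All 9 epithelial markers were detected, and their log2 summed level was between 17.05 and 17.17 on the 5 arrays and 16.04 in littermate 3, with a median difference of -0.16 without littermate 3. The sum is carried by the brightest markers, and the median difference of the 9 in littermate 3 from littermates 1 and 2 was -3.08. The smooth muscle and mesenchyme markers (8 of 8 detected, mmu-miR-143-3p among them) summed to 11.40 and 11.34 in littermates 1 and 2, while Cdr1as-/- mice 1 to 3 gave 12.57, 12.30, and 10.19. These markers did not move together, since 4 had a lower and 4 a higher mean on 5 arrays (median 0.06), with mmu-miR-143-3p at 0.44 and mmu-miR-199a-5p at -0.90. The immune markers (6 of 6, mmu-miR-142a-3p among them) summed to between 12.03 and 12.86 on the 5 arrays, with a median difference of -0.32. The endothelial markers (2 of 2, mmu-miR-126a-3p among them) summed to 8.97 and 9.34 in littermates 1 and 2 and to between 7.68 and 9.47 in the Cdr1as-/- mice, with a median difference of -0.35. The erythroid markers (2 of 3 with a probe well above background on all 6 arrays) summed to 10.08 and 8.25 in littermates 1 and 2 and to between 7.61 and 8.18 in the Cdr1as-/- mice, with a median difference of -0.81. In littermate 3 these 4 sums were 7.64, 9.25, 6.70, and 6.77. With all 6 arrays the median differences of the 5 lists, in the same order, were 0.84, 0.50, 0.59, 0.11, and -0.19. No marker passed limma's adjusted threshold in either fit, and their part in the miR-30 values was not tested.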

How the data were processed

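Mucosal small RNA of 3 littermates and 3 Cdr1as-/- mice was labelled with Cy3 and measured on 6 one-colour arrays, and samples were grouped by genotype as labelled. The authors deposited, per array, background-subtracted spot intensity values written by Agilent Feature Extraction 11.0.1.1, and 2 tables of normalized log2 values per sample, for 10690 probes and for 1831 miRNAs. How the authors normalized the deposited log2 values is not given in the sources used here. Taking up to 5 probes per miRNA back to the linear scale and averaging them returned every miRNA value within 1e-06 log2 units, which placed 8437 probes. Such averaging lets the brightest probes weigh most. The authors' fold changes, p-values, and q-values in the same table were not used. Those fold changes compare the 3 Cdr1as-/- mice with littermates 1 and 2, which is the 5-array comparison here.

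The deposited log2 values were fitted with limma 3.58.1 (lmFit and eBayes, R 4.3.3) over all miRNAs, with 6 arrays and with 5, and adjusted by the Benjamini-Hochberg method at 0.05. The 5p minus 3p difference was fitted likewise over 659 hairpins. Single members were also compared by exact two-sided permutation. The named miRNAs were the 7 members, the other strands of the family, miRNAs with the same seed, let-7 guide strands, cell type markers, and the 5 miRNAs with the highest Pearson r to the 5p mean. Members and lists were chosen with earlier results of these data known. Alternatives were 5 treatments of the scanner output (the 75th percentile over detected or all probes, the median of detected miRNA probes, quantile normalization, and normexp with an offset of 50), a filter on dim probes, an intensity trend, the methods' unpaired test, the slide and the replicate number as blocks, and each mouse left out. The 5 treatments of the scanner output took, for each miRNA, only its probe with the highest mean. They therefore change the probes used as well as the scaling. The code was tested on simulated data. Python 3.11.15, pandas 2.3.3, NumPy 2.4.6, SciPy 1.17.1, and matplotlib 3.10.9 were used. The number of arrays, 3 mice per group, limits the precision.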

Additional observations from a re-analysis of the deposited data

How the results depend on the processing

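Without littermate 3, all 7 members kept a lower mean in Cdr1as-/- mice under all 15 alternatives. Leaving out 1 mouse changed the number of members called on 5 arrays from 0 to between 0 and 2 and of all miRNAs to between 0 and 223 (Cdr1as-/- mouse 2 left out). The slide as a block called 1 member, 285 miRNAs, and 35 hairpins, and 1 miRNA was called with the 75th percentile of all probes, 1 with the median of detected miRNA probes, and 1 with an intensity trend. Among hairpins, 1 was called with quantile normalization and 1 with the methods' test, and between 0 and 1 with a mouse left out. The methods' unpaired test called no miRNA after adjustment, and adjusted p of the members under it was between 0.556 and 0.560 on 5 arrays. Scaling by the 75th percentile of all probes, the 75th percentile of detected probes, or the median moved the median of all miRNAs by -0.28, -0.24, and -0.38, and relative to that median the members lay between -0.91 and -0.50.

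With 6 arrays, mmu-miR-30d-5p turned to 0.07 (75th percentile of all probes), 0.09 (quantile), 0.07 (median), and 0.05 (normexp), mmu-miR-30a-3p to -0.01 (normexp) and -0.40 (slide block), and mmu-miR-30e-3p to -0.47 (slide block). With a mouse left out the 6-array values ran from -0.50 to 1.79 for mmu-miR-30b-5p, -0.52 to 1.86 for mmu-miR-30c-5p, -0.64 to 0.45 for mmu-miR-30a-3p, -0.95 to 0.95 for mmu-miR-30e-3p, and, for 5p minus 3p, from -1.28 to 0.40 for miR-30a, -1.30 to 0.70 for miR-30e, and -0.12 to 1.73 for miR-30b, each with its lowest or highest value without littermate 3. Without Cdr1as-/- mouse 2, mmu-miR-30a-3p was -0.18 and mmu-miR-30e-3p -0.07. On 5 arrays, 5p minus 3p turned to -0.08 for miR-30a under 3 scalings (both percentiles and the median) and to 0.16 for miR-30b under quantile normalization. The treatments of the scanner output also take 1 probe per miRNA, and the cause of these reversals was not tested.

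Deviations from the group mean correlated by -0.76, 0.56, and -0.22 between mice of the same number, so the numbers were not taken to pair the samples. With the replicate block the count of called members stayed at 0 with 6 arrays and at 0 with 5, where differences ran from -0.97 to -0.20. Probes of mmu-miR-30a-3p near background (2 of 5) limit what its value shows.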
